A study of Mus musculus with 6 samples.

Results

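The genes of apical-basal polarity described here are the Lgl genes Llgl1 and Llgl2, the Par-3 genes Pard3 and Pard3b, the Par-6 genes Pard6a, Pard6b and Pard6g, the atypical protein kinase C (aPKC) genes Prkci and Prkcz, and Numb. They were taken by symbol and are 10 of the 39174 genes in the deposited tables. Llgl2 was chosen because an earlier look at the same libraries had shown it higher in the mutant cultures, and the rest as its paralog and its partners. Differences between genotypes in these genes are therefore given as a description, with no p-value of their own; the fit over all genes is used for the background. The 6 RNA-seq libraries came from primary mouse motoneuron cultures of strain CD-1, 3 from Nmd-/- and 3 from Nmd+/+ animals. Nmd is a germline mutation of Ighmbp2, which encodes a helicase, so that every cell of a mutant culture carries it. The labels used here do not say whether replicates of a genotype came from different animals or culture days; a p-value thus reflects the variation among these libraries, part of which may be technical.

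Lgl and aPKC exclude each other at the cell cortex. The apical Par complex holds the scaffold Par-3, the adaptor Par-6 and aPKC, which phosphorylates Lgl and so keeps it to the basolateral side. In the embryonic neural tube this system marks the ventricular end feet of radial progenitors, and Numb, another aPKC substrate and an inhibitor of Notch signalling, acts at the same junctions. Later, Par-3, Par-6 and aPKC take part in specifying the axon. Llgl2 is the paralog best known from epithelia.

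Values are FPKM (fragments per kilobase of transcript, scaled to library depth), which are per length and so allow levels to be compared between genes. Each table gives a 95% interval per gene, which covers estimation within that library only. Read back from those intervals as counting error, the depth came to 14834162 fragments in the shallowest library and 22221064 in the deepest. Ighmbp2, the mutated gene, lay between 0.598 and 0.876 FPKM in Nmd-/- and between 1.09 and 1.44 FPKM in Nmd+/+, with no overlap (limma adjusted p = 0.9997). The labelled cell type was weakly represented: Chat did not exceed 0.0692 FPKM, Mnx1 0.0247 FPKM and Isl2 0.0364 FPKM in any library, and 1 of 5 motoneuron markers (Isl1) reached a mean of 1 FPKM. All 6 markers of neurons in general (Tubb3 between 85.8 and 263 FPKM) and all 6 of radial glia and astrocytes (Vim between 2380 and 4452 FPKM) did so. The libraries numbered 2 stood apart in 6 fibroblast markers, with sums of 173.5 FPKM (Nmd-/-) and 140.8 FPKM (Nmd+/+), against at most 3.52 FPKM elsewhere. Xist, the RNA that coats the silenced X, was at 0.143 FPKM in the third Nmd-/- library and 0.155 FPKM in the second Nmd+/+ library, and at 224.5 FPKM or more in the other 4. Eif2s3y, a gene of the Y chromosome, was at 19.6 and 21.2 FPKM in those low in Xist and at 0 in the other 4. By these genes the libraries numbered 2 differ in sex between genotypes, as do those numbered 3 in the opposite direction, and those numbered 1 do not.

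All 10 polarity genes were detected in every library and passed the filter of a mean of at least 1 FPKM. By mean over the 6 libraries the order was Prkci (37.4 FPKM), Prkcz (22.3), Llgl1 (17.0), Pard6g (16.7), Pard3 (10.9), Numb (8.81), Pard6a (7.31), Pard3b (4.76), Pard6b (4.18) and Llgl2 (2.58). Of the 9 neighbours in this order, only Pard6g and Pard3 had ranges over the libraries that did not overlap. Prkci lay above Prkcz, and Pard6b above Llgl2, in each of the 6 libraries, while Llgl1 exceeded Pard6g in 4 of them. Llgl2 was thus the lowest member, at a level that 14.4% of the 14611 genes tested did not exceed. Prkci stood at or above 80.7% of them.

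**Figure D1:**
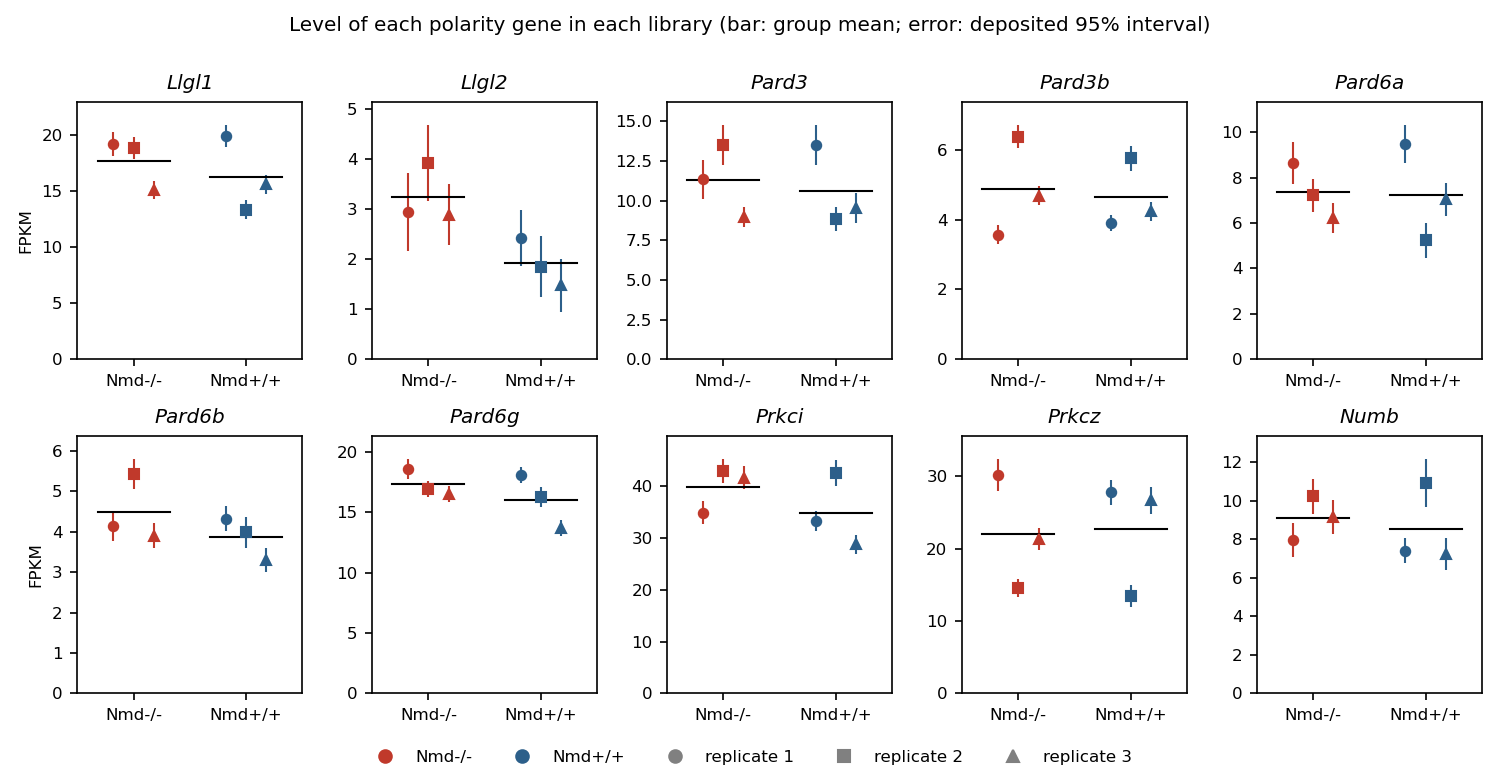
FPKM of each polarity gene (vertical axis, starting at 0) in the 3 Nmd-/- and 3 Nmd+/+ libraries; symbols mark the replicate number, error lines the deposited 95% interval and bars the group mean. Llgl2 is the member whose Nmd-/- points (2.89 to 3.92 FPKM) all lie above its Nmd+/+ points (1.48 to 2.42 FPKM).

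Llgl2 (ENSMUSG00000020782, GRCm38 chromosome 11, 115824049 to 115855780) was the member that differed most between genotypes. It measured 2.94, 3.92 and 2.89 FPKM in Nmd-/- replicates 1, 2 and 3, against 2.42, 1.85 and 1.48 FPKM in Nmd+/+ replicates 1, 2 and 3. Every Nmd-/- library was higher than every Nmd+/+ library, the highest being Nmd-/- replicate 2 and the lowest Nmd+/+ replicate 3. The means were 3.25 ± 0.58 and 1.92 ± 0.48 FPKM (SD, n = 3 each), a ratio of 1.70. On the log2(FPKM + 1) scale the difference was 0.55 (SE 0.17), which understates changes of genes as low as this. It was smallest between the libraries numbered 1, at 0.20, and came to 0.79 and 0.65 for the numbers 2 and 3. The pairs numbered 2 and 3 are also those that differ in sex by Xist, and the part of sex was not tested. In bulk cultures, more cells of a type and more RNA per cell cannot be told apart.

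The precision of Llgl2 was the poorest among the 10 genes. Its 95% interval reached between 19.5% and 35.8% of the value to either side, against at most 14.4% for any other member (Pard6a). The intervals of the replicates numbered 1 overlapped, with a lower bound of 2.15 FPKM in Nmd-/- and an upper bound of 2.97 FPKM in Nmd+/+. Those numbered 2 lay apart (3.16 against 2.46 FPKM), as did those numbered 3 (2.29 against 2.01 FPKM). No other gene in the tables overlapped the Llgl2 locus.

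Llgl1 (chromosome 11, 60699723 to 60714186), the paralog better known from the nervous system, was 5.45 times as abundant as Llgl2 in Nmd-/- and 8.49 times in Nmd+/+ by group means. It measured 19.2, 18.9 and 15.1 FPKM in Nmd-/- replicates 1, 2 and 3, against 19.9, 13.3 and 15.6 FPKM in the Nmd+/+ ones. The groups overlapped, and the Nmd-/- library was higher for number 2 only. The log2 difference of 0.13 (SE 0.18) turned to -0.05 with replicate 2 of both genotypes left out. The last 64 bases of the Llgl1 locus overlap Flii (13.3 to 19.1 FPKM), and whether strand was used in counting is not given in the sources used here.

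Set against its paralog within each library, Llgl2 took 13.3%, 17.2% and 16.1% of the summed Lgl FPKM in Nmd-/- replicates 1, 2 and 3, against 10.9%, 12.2% and 8.66% in the Nmd+/+ replicates. These shares did not overlap and averaged 15.5 ± 2.0% and 10.6 ± 1.8% (SD, n = 3 each). The log2 ratio of Llgl2 to Llgl1, with 1 added to each, was higher by 0.42 in Nmd-/-. On that scale the lowest Nmd-/- library (-2.36, replicate 1) fell just below the highest Nmd+/+ library (-2.33, replicate 2), so the absence of overlap depends on the pseudocount. Against the other 8 members the same ratio was higher in Nmd-/- by between 0.35 (Prkci) and 0.58 (Prkcz). It did not overlap between genotypes against Pard3, Pard6b and Pard6g. Since Llgl2 was chosen for being higher in Nmd-/-, nothing is read from these ratios or from the shares above.

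**Figure D2:**
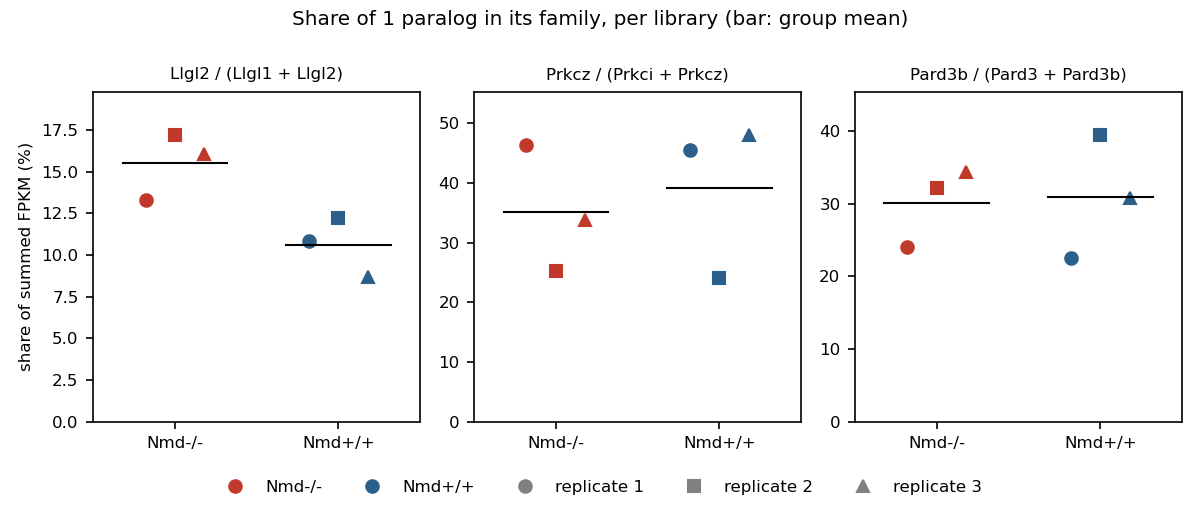
Share of a paralog in the summed FPKM of its family (vertical axis, percent, starting at 0) for Llgl2, Prkcz and Pard3b, with Nmd-/- left of Nmd+/+, a point per library shaped by replicate number, and the group mean as a bar. The Llgl2 shares separate by genotype (13.3% to 17.2% against 8.66% to 12.2%), whereas the Prkcz shares are lowest in replicate 2 of both genotypes (25.3% and 24.0%).

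Pard3 (chromosome 8, 127063893 to 127612286), which encodes the scaffold that recruits Par-6 and aPKC to junctions, measured 11.3, 13.5 and 8.96 FPKM in Nmd-/- replicates 1, 2 and 3, against 13.5, 8.84 and 9.54 FPKM in the Nmd+/+ ones. The groups overlapped, with a log2 difference of 0.08 (SE 0.20). Only the number 2 libraries were higher in Nmd-/-, by 0.56, and without them the difference was -0.16. Pard3b (chromosome 1, 61638824 to 62642284), a paralog whose product binds aPKC poorly, measured 3.58, 6.38 and 4.69 FPKM in Nmd-/-, against 3.92, 5.77 and 4.24 FPKM in Nmd+/+. It was highest in replicate 2 of both genotypes, and its Nmd+/+ range lay within its Nmd-/- range.

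The Par-6 genes encode the adaptors that tie aPKC to Cdc42. Pard6g (chromosome 18, 80046895 to 80119640) was the most abundant of the 3, at 59.5 ± 2.4% of the Par-6 FPKM in Nmd-/- and 59.2 ± 4.0% in Nmd+/+ (SD, n = 3 each). It measured 18.6, 16.9 and 16.5 FPKM in Nmd-/- replicates 1, 2 and 3, against 18.1, 16.3 and 13.7 FPKM in Nmd+/+, higher in 3 of 3 pairs by at most 0.25 on the log2 scale. Relative to its level, its highest library exceeded its lowest by less than in any other member. Pard6a (chromosome 8, 105701154 to 105703493) measured 8.66, 7.22 and 6.21 FPKM in Nmd-/-, against 9.48, 5.23 and 7.04 FPKM in Nmd+/+. Pard6b (chromosome 2, 168081004 to 168101203) measured 4.15, 5.43 and 3.90 FPKM in Nmd-/-, against 4.32, 3.98 and 3.30 FPKM in Nmd+/+. Both overlapped between genotypes, and for both the largest difference was in the number 2 libraries (0.40 and 0.37).

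Numb (chromosome 12, 83794034 to 83921934) measured 7.97, 10.2 and 9.17 FPKM in Nmd-/- replicates 1, 2 and 3, against 7.41, 10.9 and 7.23 FPKM in the Nmd+/+ ones. It was highest in replicate 2 of both genotypes. The groups overlapped, with a log2 difference of 0.10 (SE 0.18).

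The aPKC genes are Prkci (chromosome 3, 30995747 to 31052741), whose product aPKC-iota is required for the apical junctions of neural progenitors, and Prkcz (chromosome 4, 155260129 to 155361361), which also makes the brain isoform PKM-zeta, a kinase without the regulatory domain, from an internal start. Their start windows are shown because a gene-level FPKM of Prkcz sums the RNA from its starts. Prkcz has 3 such starts. The third, also internal and with no coding transcript of GENCODE M21 beginning within 100 bases, is not printed. Windows run from 250 bases before to 50 after a start, credited to RefSeq (GRCm38.p6), 5′ to 3′ on the gene's strand, for Prkci (chr3:30995521-30995820, plus strand), the first Prkcz start (chr4:155361379-155361678, minus strand) and the second, internal one (chr4:155345740-155346039, minus strand). Capitals mark the GC box GGGCGG, the CCAAT box, the TATA box TATAAA or the E-box CAGCTG, on either strand; none of these matches overlap in the windows printed.
Prkci: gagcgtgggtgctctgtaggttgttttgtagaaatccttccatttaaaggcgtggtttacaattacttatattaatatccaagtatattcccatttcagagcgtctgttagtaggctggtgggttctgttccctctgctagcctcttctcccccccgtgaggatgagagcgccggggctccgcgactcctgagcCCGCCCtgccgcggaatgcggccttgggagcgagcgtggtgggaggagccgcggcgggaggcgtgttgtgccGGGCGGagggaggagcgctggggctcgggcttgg
Prkcz first start: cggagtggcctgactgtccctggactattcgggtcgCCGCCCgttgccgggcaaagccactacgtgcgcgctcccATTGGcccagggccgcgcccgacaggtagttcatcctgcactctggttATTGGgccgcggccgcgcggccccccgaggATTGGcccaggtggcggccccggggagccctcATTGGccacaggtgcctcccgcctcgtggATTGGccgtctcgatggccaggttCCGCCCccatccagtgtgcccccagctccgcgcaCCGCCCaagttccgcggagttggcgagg
Prkcz internal start: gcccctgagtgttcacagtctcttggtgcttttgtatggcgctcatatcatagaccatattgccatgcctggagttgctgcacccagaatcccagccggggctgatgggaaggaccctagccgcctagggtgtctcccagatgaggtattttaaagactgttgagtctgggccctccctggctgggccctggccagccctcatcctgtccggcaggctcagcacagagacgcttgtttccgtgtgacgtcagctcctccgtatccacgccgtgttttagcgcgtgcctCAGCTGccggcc
In GENCODE M21 the longest coding length that begins within 100 bases of these starts was 1785 bases for Prkci, 1776 bases for the first Prkcz start and 1227 bases for the internal one. The Prkci window held 22 CG dinucleotides and 2 GGGCGG matches, and the first Prkcz window 31, with 3 GGGCGG and 5 CCAAT matches. The internal Prkcz window held 13 CG dinucleotides and 1 CAGCTG match. The median over 32851 RefSeq windows of this length was 7 CG dinucleotides. Of those windows, 35.7% held GGGCGG, 37.4% CCAAT, 13.6% TATAAA and 16.3% CAGCTG. RefSeq windows were matched for 8 of the 10 members, with 14 starts, of which 10, 6, 2 and 2 held these motifs in that order. Llgl2 and Pard6g had no window, so their starts were not examined. A match is a description of letters and does not show binding.

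Prkci and Prkcz did not move together across the libraries. Prkci measured 34.9, 43.0 and 41.7 FPKM in Nmd-/- replicates 1, 2 and 3, against 33.3, 42.6 and 28.9 FPKM in the Nmd+/+ ones. It was highest in replicate 2 of both genotypes and lowest in Nmd+/+ replicate 3. Prkcz measured 30.2, 14.6 and 21.3 FPKM in Nmd-/-, against 27.8, 13.5 and 26.7 FPKM in Nmd+/+. It was lowest in replicate 2 of both genotypes, and the groups overlapped for both genes. The log2 difference was 0.20 (SE 0.17) for Prkci, the mean of 0.06, 0.01 and 0.51 for the numbers 1, 2 and 3. For Prkcz it was -0.03 (SE 0.34).

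As background, the limma fit between genotypes called 0% of the 14611 genes at an adjusted p of 0.05, and so 0 of the 10 members. Without adjustment 65 genes had p under 0.05, and with the replicate number as a block 0 passed and 711 had an unadjusted p under 0.05. By their means 9 of the 10 members were higher in Nmd-/-, Prkcz being the exception, where 56.0% of all genes were. The members' median log2 difference was 0.11, against 0.02 over all genes. Llgl2 was the 1 member with 3 against 3 values that did not overlap and were higher in Nmd-/-, as held for 1.76% of genes. No member was lower without overlap, as 0.910% of genes were, so 1 member did not overlap in either direction, against 2.67% of genes. Llgl2, Pard6g and Prkci were higher in 3 of 3 pairs, as were 14.9% of genes, and no member was lower in 3 of 3. Since the members were chosen with this contrast known, nothing is read from these counts.

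**Figure D3:**
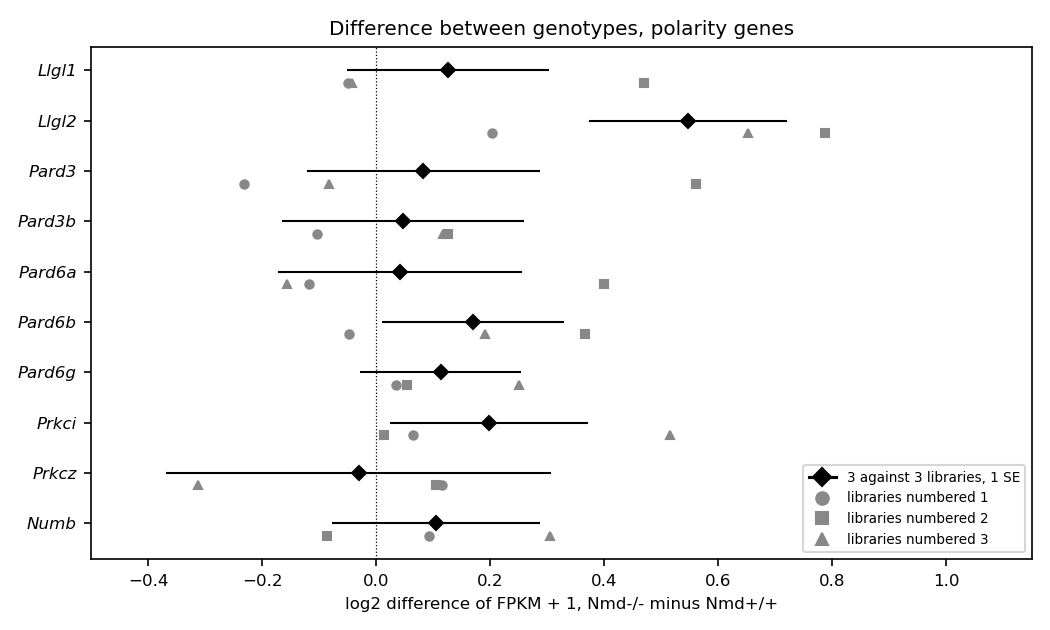
Difference in log2(FPKM + 1), Nmd-/- minus Nmd+/+ (horizontal axis), for each polarity gene: black diamonds give the difference of 3 against 3 libraries with 1 SE, and grey symbols the differences between same-numbered libraries. Llgl2 lies at 0.55, with all 3 grey symbols right of 0, and the other members between -0.03 and 0.20.

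Library against library, the deposited intervals lay apart for 0 of the 10 members between the replicates numbered 1, where they did for 10.6% of all genes. They lay apart for 5 members between those numbered 2 (39.9% of genes) and for 5 between those numbered 3 (40.1% of genes). By Xist the libraries of these pairs differ in sex, unlike those numbered 1, and the part of sex was not tested. The 5 of number 2 were Llgl1, Llgl2, Pard3, Pard6a and Pard6b, each higher in Nmd-/-. The 5 of number 3 were Llgl2, Pard6g, Prkci and Numb, higher in Nmd-/-, and Prkcz, lower in Nmd-/-. Llgl2 was the member common to the pairs numbered 2 and 3.

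The replicate number, which the genotype contrast does not use, was tested with a moderated F test of the 3 numbers (2 libraries each) with genotype as a covariate. It called 2 of 10 members, against 28.6% of all genes, a share near this background. Prkcz averaged 29.0, 14.01 and 24.0 FPKM over the numbers 1, 2 and 3 (limma adjusted p = 0.00343). The mean of its number 2 libraries was 0.529 times that of the other numbers, and the number 2 library was the lowest within both genotypes. Pard3b averaged 3.75, 6.07 and 4.46 FPKM (limma adjusted p = 0.0287), with the number 2 libraries at 1.48 times the mean of the others. Of the members that did not pass, Pard6a and Numb came nearest, with limma adjusted p of 0.0768 and 0.0885, and Llgl2 had 0.367. Prkcz passed under every alternative but 1: with no filter on low values no gene passed. Pard3b did not pass without Nmd-/- replicate 1 or 2 or without Nmd+/+ replicate 1, and fell under a filter of a mean of at least 5 FPKM.

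Cell type markers moved with the replicate number beside these genes. In the libraries numbered 2 the 6 neuron markers summed to 338 FPKM (Nmd-/-) and 343 FPKM (Nmd+/+), against between 513 and 741 FPKM in the other 4 libraries. The sum of the 6 radial glia and astrocyte markers was highest there, at 4979 FPKM (Nmd-/-) and 4339 FPKM (Nmd+/+), against between 3142 and 4222 FPKM elsewhere. Vim made up most of it, at 4452 FPKM (Nmd-/-) and 3645 FPKM (Nmd+/+). The single markers did not all follow the sum. Sox2 was highest in the number 2 libraries (28.5 and 26.9 FPKM), but Fabp7 was lowest in Nmd-/- replicate 2 (283 FPKM) and Slc1a3 in Nmd+/+ replicate 2 (101 FPKM). Together with the fibroblast sums above, these differences run along the same libraries as Prkcz and Pard3b, and their part in the results was not tested.

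**Figure D4:**
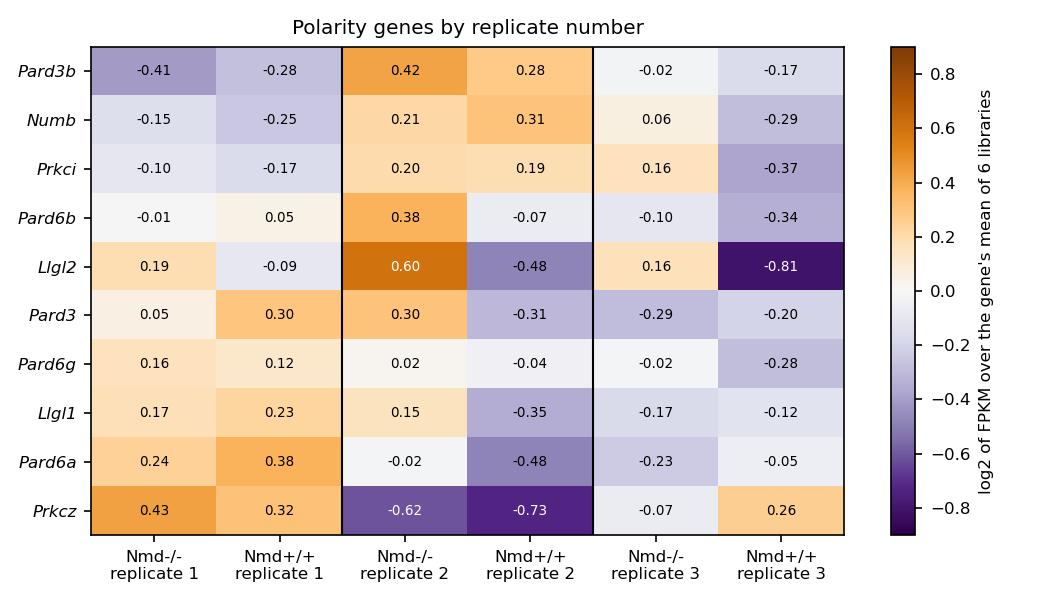
Log2 of each polarity gene's FPKM over its own mean of the 6 libraries (colour and printed value), with libraries grouped by replicate number and Nmd-/- left of Nmd+/+ in each. Prkcz is low and Pard3b and Numb are high in both number 2 libraries, while the values of Llgl2 differ between genotypes within the numbers 2 and 3.

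For Llgl2 the markers were compared by genotype. The 9 epithelial markers, none of which reached a mean of 1 FPKM, summed to between 1.09 and 1.91 FPKM in Nmd-/- and between 0.777 and 2.39 FPKM in Nmd+/+. Esrp1 and Krt8 were at 0 in 4 and 3 libraries, and Cdh1, the epithelial cadherin gene, did not exceed 0.429 FPKM. The radial glia and astrocyte sum lay between 4004 and 4979 FPKM in Nmd-/- and between 3142 and 4339 FPKM in Nmd+/+, and the sum of 4 markers of dividing cells between 200.5 and 245.4 FPKM in Nmd-/- and between 160.4 and 234.1 FPKM in Nmd+/+. Nmd+/+ replicate 3 was the lowest of both, as it was for Llgl2. Vim made up most of the radial glia and astrocyte sum (2380 FPKM in that library), whereas Fabp7 was highest there (564 FPKM). Within same-numbered pairs, the sums of 3 lists were higher in Nmd-/- in 3 of 3, as Llgl2 was. The choroid plexus sum was 7.76, 13.6 and 10.1 FPKM in Nmd-/- for the numbers 1, 2 and 3, against 6.22, 10.8 and 6.46 FPKM in Nmd+/+. Folr1 carried that sum (6.21 to 13.6 FPKM), so it describes 1 gene. Ttr did not exceed 0.103 FPKM and Otx2 0.0564 FPKM. The endothelial sum was 10.02, 17.6 and 14.5 FPKM in Nmd-/-, against 9.16, 15.8 and 10.9 FPKM in Nmd+/+. It too rested on 1 gene, Kdr (8.97 to 16.9 FPKM). Pecam1 did not exceed 0.236 FPKM, and Cdh5 was at 0 in 4 libraries and did not exceed 0.604 FPKM. The fibroblast sum was 3.52, 173.5 and 3.05 FPKM in Nmd-/-, against 2.22, 140.8 and 2.34 FPKM in Nmd+/+. The neuron sum was lower in 3 of 3 pairs, at 706, 338 and 513 FPKM in Nmd-/-, against 741, 343 and 674 FPKM in Nmd+/+. So was the motoneuron sum, at 2.28, 1.11 and 1.56 FPKM in Nmd-/-, against 2.50, 1.33 and 2.30 FPKM in Nmd+/+. Isl1 and Lhx3 carried that low sum, and neither was lower in 3 of 3 pairs. Isl1 was higher in Nmd-/- for the number 1 (1.75 against 1.69 FPKM) and Lhx3 for the number 2 (0.439 against 0.404 FPKM). The oligodendrocyte sum lay between 25.7 and 42.8 FPKM in Nmd-/- and between 33.2 and 62.7 FPKM in Nmd+/+. All these sums overlapped between genotypes. Their part in the difference of Llgl2 was not tested.

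The genes whose log2(FPKM + 1) followed Llgl2 most closely over the 6 libraries, of 14610 ranked by Pearson correlation, were Crb2 (r = 0.993), Tdrp (0.992), Irs1 (0.990), Ypel4 (0.977) and Elfn1 (0.976). With 6 libraries high values are common: 136 genes exceeded 0.9. Among the members Pard6b was the most alike (r = 0.857, with 272 genes more alike) and Prkcz the least (r = -0.19). Crb2, a Crumbs gene whose product is a transmembrane determinant of the apical membrane of neural progenitors, was also on the list of Crumbs genes. It measured 13.99, 17.0 and 14.2 FPKM in Nmd-/- replicates 1, 2 and 3, against 12.7, 11.1 and 9.06 FPKM in the Nmd+/+ ones. As for Llgl2, the groups did not overlap, Nmd-/- replicate 2 was highest and Nmd+/+ replicate 3 lowest. Since Crb2 came first in a ranking by likeness to Llgl2 over these same libraries, this shared pattern follows from the ranking, and nothing is read from it. Its mean was 15.1 ± 1.7 FPKM in Nmd-/- and 10.9 ± 1.8 FPKM in Nmd+/+ (SD, n = 3 each), and its log2 difference of 0.44 (SE 0.16) did not pass.

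The wider polarity machinery was followed in 8 lists holding 83 genes of the tables, of which 69 were tested. Over all genes 0 of the 69 passed between genotypes in limma, and 44 had a higher mean in Nmd-/-, where 56.0% of all genes had. The median log2 difference was 0.05, against 0.02 over all genes. Without overlap, 3 genes (Crb2, Inadl and Wwc1) were higher and 1 (Pdpk1) lower, where 1.76% of all genes were higher and 0.910% lower. By replicate number 21 passed, or 30.4%, against 28.6% of all genes.

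Of the Crumbs list, 4 of 7 tested genes had a higher mean, with a median of 0.02. That median had no stable sign: it was between -0.03 (no filter) and 0.21 (without Nmd+/+ replicate 2), and lay just below 0 under quantile normalization. Inadl, the Patj scaffold of the Crumbs complex, measured 3.44, 3.43 and 3.58 FPKM in Nmd-/- replicates 1, 2 and 3, against 2.97, 3.09 and 1.98 FPKM in the Nmd+/+ ones. Its Nmd-/- libraries lay close together above all Nmd+/+ libraries. Lin7c was the most abundant gene of the list (46.8 ± 6.1 FPKM in Nmd-/- and 49.8 ± 5.4 FPKM in Nmd+/+, SD, n = 3 each), and Lin7a had the lowest log2 difference (-0.34, SE 0.23). In the Scribble and Dlg list, whose products act with Lgl on the basolateral side, 4 of 6 genes had a higher mean, with a median of 0.05. The log2 differences ran from -0.09 (Dlg2) to 0.18 (Scrib), and Dlg4, a postsynaptic scaffold, was the most abundant (107 ± 40 FPKM in Nmd-/- and 112 ± 44 FPKM in Nmd+/+, SD, n = 3 each). Dlg1, Dlg2 and Dlg4 passed by replicate number, Dlg1 highest and the other two lowest in the number 2 libraries.

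The regulators of Cdc42 and aPKC were lower by mean in 6 of 8, with a median of -0.02, and held both a higher and a lower gene without overlap. Wwc1, which encodes the aPKC substrate Kibra, measured 79.0, 90.5 and 83.3 FPKM in Nmd-/- replicates 1, 2 and 3, against 71.4, 69.3 and 60.3 FPKM in the Nmd+/+ ones, a log2 difference of 0.33 (SE 0.13). Pdpk1, which encodes the kinase that phosphorylates the activation loop of aPKC, measured 28.3, 28.4 and 28.8 FPKM in Nmd-/-, against 32.1, 32.7 and 34.0 FPKM in Nmd+/+, a log2 difference of -0.20 (SE 0.11). Neither passed.

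The adherens junction list had a higher mean in Nmd-/- in 10 of 10 genes tested, where 56.0% of all genes had, with a median of 0.15 that was 0.06 without Nmd+/+ replicate 3 and 0.22 without replicate 2 of both genotypes. Shroom3, which drives apical constriction, showed the largest log2 difference, at 0.37 (SE 0.17). It measured 38.1, 42.0 and 35.0 FPKM in Nmd-/- replicates 1, 2 and 3, against 35.4, 29.7 and 23.9 FPKM in the Nmd+/+ ones, which overlap. N-cadherin (Cdh2) was the most abundant, at 238 ± 23 FPKM in Nmd-/- and 210 ± 19 FPKM in Nmd+/+ (SD, n = 3 each). Ctnna2 had the smallest difference (0.03). The tight junction list had a higher mean in 8 of 8, with a median of 0.15 and differences from 0.04 (Ocln) to 0.33 (F11r). Its median was 0.01 without Nmd-/- replicate 2, 0.04 without Nmd+/+ replicate 3, 0.07 without Nmd+/+ replicate 1, 0.23 without Nmd-/- replicate 1, 0.32 without Nmd+/+ replicate 2 and 0.05 with no filter. Jam2, a junctional adhesion molecule gene, was its most abundant, averaging 457 ± 81 FPKM over the Nmd-/- libraries, against 419 ± 121 FPKM over the Nmd+/+ ones (SD, n = 3 each). Within pairs the median of the tight junction list was 0.12, -0.03 and 0.37 for the numbers 1, 2 and 3, and that of the adherens junction list 0.08, 0.01 and 0.36. F11r, which encodes junctional adhesion molecule A, was highest in replicate 2 of both genotypes (18.1 FPKM in Nmd-/- and 15.8 FPKM in Nmd+/+, against at most 8.67 FPKM elsewhere). Its limma adjusted p by replicate number was 0.00282. The claudins of the list differed widely in level. Cldn12 averaged 34.1 FPKM over the 6 libraries and Cldn1 1.61 FPKM, whereas Cldn4 was listed at 0 in all 6, Cldn10 did not exceed 0.491 FPKM, and Cldn3, Cldn5, Cldn6 and Cldn7 did not exceed 0.218 FPKM.

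The Par-1, Par-4 and Par-5 genes had a higher mean in 7 of 15, with a median of -0.01, between -0.15 (Ywhaq) and 0.15 (Mark2). Ywhae, a Par-5 gene whose product binds phosphorylated polarity proteins, was the most abundant, at 685 ± 39 FPKM in Nmd-/- and 687 ± 23 FPKM in Nmd+/+ (SD, n = 3 each). Genes of spindle orientation and Numb partners had a higher mean in 6 of 9 (median 0.03), from -0.23 (Gnai1) to 0.20 (Numbl, the paralog of Numb), with Gnai2 the most abundant (215 ± 23 FPKM in Nmd-/- and 195 ± 25 FPKM in Nmd+/+, SD, n = 3 each). The list of tomosyns, which share the Lgl fold, and of other Lgl partners had 3 of 6 higher (median 0.04). Its differences ran from -0.16 (Stxbp5l) to 0.35 (Myh9), and Rab10 was the most abundant, at 101 ± 10 FPKM in Nmd-/- and 106 ± 2.1 FPKM in Nmd+/+ (SD, n = 3 each). Myh9, a nonmuscle myosin gene, measured 25.5, 53.1 and 30.5 FPKM in Nmd-/- replicates 1, 2 and 3, against 21.3, 49.8 and 18.5 FPKM in the Nmd+/+ ones, and was called by replicate number (limma adjusted p = 0.00215).

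**Figure D5:**
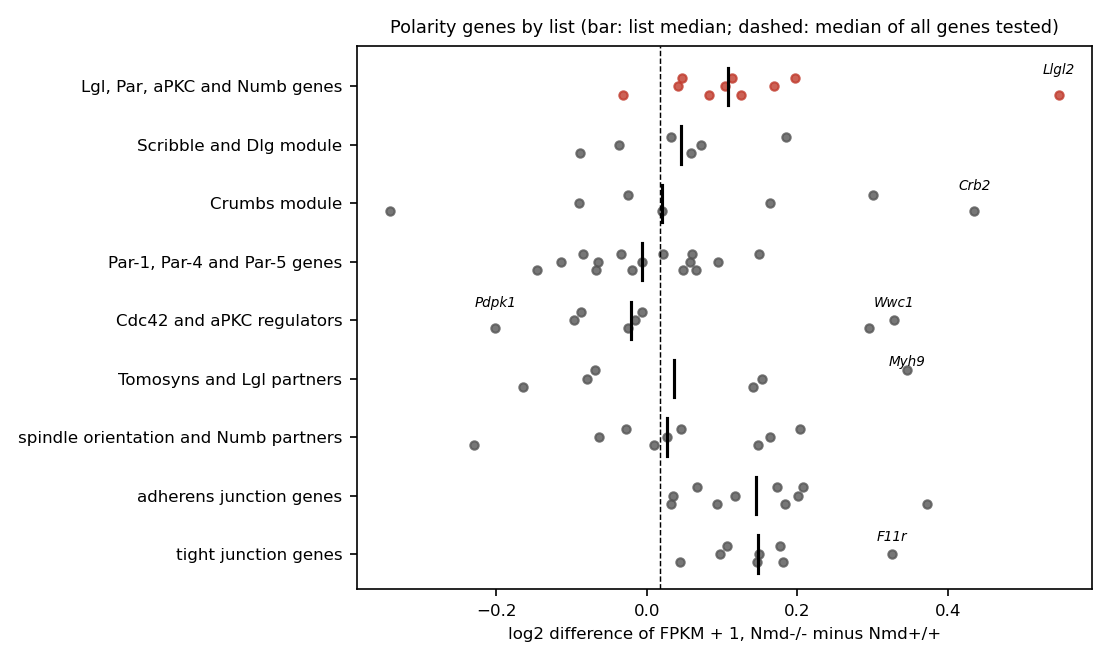
Log2 difference between genotypes (horizontal axis, Nmd-/- minus Nmd+/+) of each tested gene in the 8 lists (grey) and of the 10 members (red); short bars are list medians and the dashed line the median of all 14611 genes (0.02). Llgl2 (0.55) and Crb2 (0.44) lie farthest right, and the junction lists lie wholly right of 0.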

How the data were processed

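The authors deposited 1 table of gene FPKM per library with 95% intervals and a status, whose columns are those of Cufflinks, per the file headers. Tools named in the submitters' processing notes are Cufflinks 2.2.1, SAMtools 1.3, cutadapt 1.8 and Trim Galore 0.4.0, with the build GRCm38; the labels' protocols name a column RNA kit and a Lexogen mRNA kit. The aligner version, annotation release and strand setting are not stated in any source used here. Adding 1 to a deposited start gave the GENCODE M21 start for 77.8% of 37604 matched genes, so coordinates are printed from 1.

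In R 4.3.3, limma 3.58.1 with an intensity trend was run on log2(FPKM + 1) for genes with a mean of at least 1 FPKM and an accepted status in all 6 libraries (14611 genes), with no rescaling. Genotype was the only term, Nmd-/- minus Nmd+/+. Each SE of a log2 difference is from this fit and so includes the variation between replicate numbers. With the number as a block, the SE was 0.14 for Llgl2 and 0.12 for Prkcz, against 0.17 and 0.34 without. The F test of the replicate number kept genotype as a covariate. Adjusted p-values are Benjamini-Hochberg values over all 14611 genes. Both fits were tried on simulated data, whose noise was what remained after genotype and replicate number were taken out. The genotype fit was therefore not tried with a replicate effect like that of these libraries. Figures used matplotlib 3.10.9 in Python 3.11.15.

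Same-numbered libraries deviated together from their group means (r = 0.82, 0.70 and 0.39 across genes for the numbers 1, 2 and 3), so the numbers were taken to pair the libraries; this comes from the values and not from a label. Members and lists were chosen with earlier results of these data known. The named genes were the members, the 5 genes most like Llgl2 and, per list, the most abundant gene and those with the highest and the lowest log2 difference (the most abundant gene of the Cdc42 and aPKC list is not reported here); genes without overlap, and those singled out by replicate number or as low, were named after their values were seen.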

Additional observations from a re-analysis of the deposited data

How the results depend on the processing

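No gene was called between genotypes under any of 13 alternatives, the replicate block (0 genes) included. The log2 difference of Llgl2 lay between 0.43 and 0.74 in the 12 alternatives that kept it, and a mean of at least 5 FPKM removed the gene. Its sign could not change when libraries were left out or the pseudocount was lowered, since every Nmd-/- value lies above every Nmd+/+ value. The replicate block and the absence of a filter leave it at 0.55 by construction. Nothing is read from its sign. The Llgl2 to Llgl1 ratio was higher in Nmd-/- by between 0.33 and 0.61 in the 8 alternatives run. Of these, the replicate block repeats the main value (0.42) by construction. Since Llgl2 was chosen as higher in Nmd-/-, nothing is read from this sign either. Of the other members, Llgl1, Pard3, Pard3b, Pard6a and Prkcz changed sign when libraries were left out, and none did under a scaling alternative. The medians of 6 of the 8 lists changed sign under at least 1 alternative. Those of the Scribble and Dlg list (-0.03 to 0.12), the Crumbs list (-0.03 to 0.21), the Par-1, Par-4 and Par-5 list (-0.09 to 0.07) and the spindle list (-0.01 to 0.23) moved by more than 1 SD of their same-numbered pairs in 8, 4, 4 and 2 of 13 alternatives. The medians of the regulators of Cdc42 and aPKC (-0.07 to 0.04) and the tomosyn list (-0.02 to 0.14) changed sign within 1 SD. Those of the adherens (0.06 to 0.22) and tight junction lists (0.01 to 0.32) stayed above 0. The count by replicate number was the least stable. With no filter on low values 0 genes and 0 members passed limma, although 6348 genes had an unadjusted p under 0.05; the cause was not tested. Leaving out a library gave between 2280 and 6470 genes, and between 1 and 5 members. It gave 2280 genes and 1 member without Nmd+/+ replicate 1, 2664 and 1 without Nmd-/- replicate 1, 6470 and 5 without Nmd-/- replicate 2, 5 members without Nmd-/- replicate 3, and 4 without Nmd+/+ replicate 2. A mean of at least 5 FPKM gave 1 member, since Pard3b was then not tested.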
